A study of Mus musculus with 12 samples.

Results

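The integrin, laminin and nidogen genes were followed in mouse hearts that lacked or carried apelin, a peptide hormone that acts on heart and vessels, and that had undergone aortic banding or a sham operation. The genes were chosen by name: each gene whose symbol starts with Itga or Itgb, or with Lama, Lamb, Lamc or Nid followed by a digit, and that had a probe set for it alone. This gave 41 of the 18193 genes on the array. They comprised 16 integrin alpha chains, 9 integrin beta chains, 4 genes that carry an integrin name without encoding an integrin chain (Itgb1bp1, Itgb1bp2, Itgb3bp and Itgbl1), and 12 laminin and nidogen genes. Itga11 and Itgad were not analysed here. Each gene was read by its probe set of highest mean.

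RNA from whole hearts was hybridised to 12 Affymetrix arrays, 3 for each of 4 groups: apelin-knockout mice with aortic banding, apelin-knockout mice with a sham operation, wild-type mice with aortic banding and wild-type mice with a sham operation. Banding narrows the aorta and loads the left ventricle with pressure. The labels call the arrays of a group biological replicates and give no strain, sex, age or time after surgery. Whether each array held the RNA of a single heart or of several is not given in the sources used here, so the p-values measure the spread between these samples.

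Integrins are cell-surface receptors made of an alpha and a beta chain, and they tie the matrix outside the cell to the actin cytoskeleton inside it. Laminins are trimers of an alpha, a beta and a gamma chain that form the sheet-like core of basement membranes, and nidogens bridge that sheet to the type IV collagen network. In heart muscle the laminin receptor of Itga7 and Itgb1 chains anchors the cardiomyocyte to its basement membrane at the costameres. Fibronectin, vitronectin, collagen and tenascin receptors such as those of Itga5, Itgav, Itga1 and Itga9 are used by fibroblasts, vessels and leukocytes as well as by muscle.

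The values are fluorescence intensities on a linear scale, and as deposited all 12 arrays had the same trimmed mean. The 8 ventricular cardiomyocyte markers, which should be high in heart, summed to between 55973 and 105952 in each array. Apln, the deleted gene, read 271, 123 and 160.1 in knockout banded hearts, 63.7, 111 and 85.4 in knockout sham hearts, 205, 223 and 255 in wild-type banded hearts, and 333, 323 and 212 in wild-type sham hearts. It was 0.96 log2 units lower in the 6 knockout arrays (exact two-sided permutation test, p = 0.013), and the 2 genotypes overlapped in banded hearts. The difference was −0.34 there (p = 0.4) and −1.57 in sham hearts, where the groups did not overlap and p = 0.1 was the smallest value the exact permutation test allows. The overlap came from the array labelled knockout banded 1. The same array had a summed signal of 8 lung epithelium markers of 1960, against 203 to 306 in the other 11 arrays, and it was the lowest of its group for several genes below. Counts of the genes that passed are therefore given with and without it, as are the differences of some genes. The other differences are from all 12 arrays. The array was singled out partly by values of genes tested here. The p-values of fits without it are not independent of that choice and may be too small.

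Of the 41 genes, 29 lay in the upper 60% of genes by mean intensity and were tested. The other 12 (Itgb3, Lamc3, Itga10, Itgb2l, Itgax, Itgb8, Itgam, Itga2, Itgb7, Itgae, Itgb4 and Lama1) had means of 2.59 to 48.5. The highest means were 2617 for Itgb1bp2, 1652 for Itgb1, 946 for Itgb5, 916 for Nid1 and 793 for Lamc1. Probes bind with different strength, so these levels do not rank the genes by transcript number. All differences below are on the scale of log2(intensity + 16), a scale on which the change of a dim gene is understated.

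Banding of knockout hearts went with higher signal for 5 of the 29 genes and with lower signal for none. The 5 were 3 integrin alpha chains (Itga6, Itga9 and Itgav), 1 integrin beta chain (Itgb5) and the integrin beta-like gene Itgbl1. None of the 10 tested laminin and nidogen genes passed. The test was limma on all 12 arrays with an adjusted p under 0.05 over 10916 genes, a rule that called 3.77% of all tested genes in the same comparison, 2.04% higher and 1.73% lower. The median difference of the 29 genes was 0.15, beside −0.02 over all tested genes, and 20 of the 29 lay above 0. The arrays of both groups did not overlap for 7 genes that were higher after banding: Itga5, Itga6, Itga9, Itgav, Itgb5, Itgbl1 and, barely, Nid1. The same held for 4 genes that were lower (Itgal, Itgb1bp2, Lama5 and Lamb3). Of all tested genes 12.2% did not overlap upwards and 14.4% downwards. In whole-heart RNA, more or fewer cells of a type and more or less RNA per cell cannot be told apart.

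The calls depended on single arrays. With the array labelled knockout banded 1 left out, 9 genes passed: Itga1, Itga5, Itga6, Itga9, Itgav, Itgb5 and Itgbl1 were higher in knockout banded hearts and Lama5 and Lamb3 were lower, and the same fit called 6.21% of all tested genes higher and 6.93% lower. Leaving out knockout banded 2 or 3, or knockout sham 2 or 3, left 0 genes past the threshold, and leaving out knockout sham 1 left 1, Itgb5. Calls over all tested genes fell alike, to 12, 11, 40, 5 and 87 in these 5 fits, against 412 with all arrays. The signs of the differences stayed as they were in each of these fits for the 5 genes that passed.

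**Figure D1:**
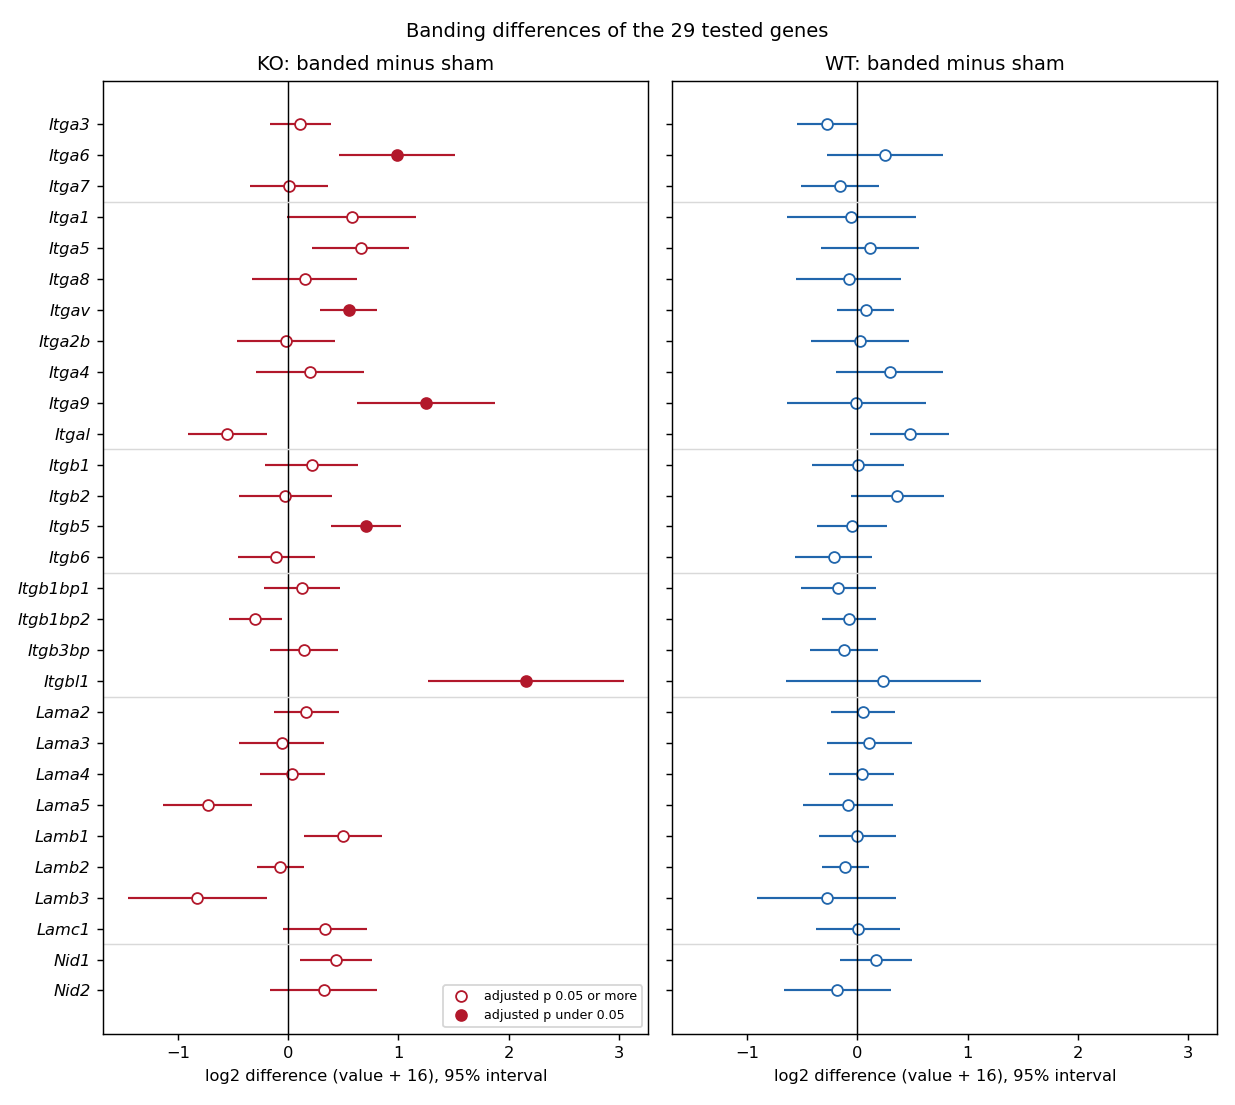
Differences between banded and sham hearts for the 29 tested genes, in knockout mice on the left and in wild-type mice on the right, as log2(intensity + 16) with 95% intervals. Genes run from laminin-binding alpha chains at the top through other alpha chains, beta chains and binding proteins to laminins and nidogens. Filled points passed the adjusted threshold: Itga6, Itgav, Itga9, Itgb5 and Itgbl1 in knockout hearts and none in wild-type hearts.

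Itgb5 was called higher in knockout banded hearts with all arrays. Itga5 and Itga1 missed the threshold there and were called higher without the array labelled knockout banded 1. For these 3 genes the RefSeq table of promoters starts at the gene's own first base. Their 250 bases before the start are printed from that table (mouse build GRCm38.p6), with each GC box, the motif GGGCGG or its reverse complement CCGCCC, in capitals. GC boxes are bound by Sp-family factors.
Itgb5, chr16:33829415-33829664, plus strand: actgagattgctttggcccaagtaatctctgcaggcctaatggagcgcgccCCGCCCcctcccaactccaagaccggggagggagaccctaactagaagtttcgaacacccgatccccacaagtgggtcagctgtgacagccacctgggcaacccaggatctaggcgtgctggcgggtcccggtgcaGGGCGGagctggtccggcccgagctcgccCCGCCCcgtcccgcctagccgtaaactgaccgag
Itga5, chr15:103366792-103367041, minus strand: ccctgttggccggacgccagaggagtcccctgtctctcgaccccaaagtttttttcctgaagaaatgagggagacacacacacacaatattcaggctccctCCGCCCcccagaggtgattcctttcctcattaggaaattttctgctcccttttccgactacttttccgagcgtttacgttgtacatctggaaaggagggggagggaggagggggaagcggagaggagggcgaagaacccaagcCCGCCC
Itga1, chr13:115101965-115102214, minus strand: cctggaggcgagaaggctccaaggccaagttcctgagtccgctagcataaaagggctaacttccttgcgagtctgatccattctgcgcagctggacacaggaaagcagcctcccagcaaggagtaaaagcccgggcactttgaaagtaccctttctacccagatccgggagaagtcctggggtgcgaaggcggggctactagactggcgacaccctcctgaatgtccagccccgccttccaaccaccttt
The Itgb5 window held 3 GC boxes, the Itga5 window 2 and the Itga1 window 0. Windows of 27 of the 41 genes were in the table, and 10 of those genes had a GC box, a motif found in 32.7% of all 32851 windows. An AP-1 site (TGANTCA on either strand) lay in the windows of 1 of the 27 genes and in 6.75% of all windows. A TEAD site (GGAATG or CATTCC) lay in those of 4 of the 27 and in 12.6% of all windows. None of the 3 printed windows held an AP-1 or TEAD site. These matches describe letters, and no motif overlapped another in the printed windows.

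Among the laminin-binding alpha chains, Itga6 was higher in knockout banded hearts and Itga7 was not. Itga6 pairs with the Itgb1 or Itgb4 chain and is a laminin receptor of endothelium and epithelium. Its intensity was 966, 1093 and 1137 in knockout banded hearts, 543, 487 and 558 in knockout sham hearts, 746, 474 and 808 in wild-type banded hearts, and 801, 574 and 363 in wild-type sham hearts. The 3 knockout banded arrays lay above every other array, and both wild-type groups spread widely, with 1 array of each below the knockout sham range. The banded group's mean was 2.01 times that of sham in knockout hearts (log2 difference 0.99, SE 0.24, adjusted p 0.0443), and the difference in wild-type hearts was 0.25 (95% interval −0.27 to 0.77). A second Itga6 probe set gave 0.54 in knockout and 0.53 in wild-type hearts. The Itga6 difference was 1.06 (adjusted p 0.026) without the array labelled knockout banded 1. The call was lost without any 1 of the other 5 knockout arrays (adjusted p 0.106 to 0.159) and without wild-type banded 1 (0.0558), wild-type banded 3 (0.0501) or wild-type sham 2 (0.0576). With all arrays it was also lost with no filter (0.0731), without the variance trend (0.059) and with averaged probe sets (0.0646). Fitting the replicate number as a block lost the Itga6 call too.

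Itga7, the main laminin-binding alpha chain of striated muscle, read 459, 569 and 672 in knockout banded hearts, 594, 478 and 605 in knockout sham hearts, 442, 413 and 564 in wild-type banded hearts, and 449, 530.4 and 600.4 in wild-type sham hearts. The 4 groups overlapped throughout. The banding difference in knockout hearts was 0.01, with a 95% interval of −0.34 to 0.36. Itga3, a laminin receptor chain of epithelia, changed little with banding in knockout hearts (0.11, adjusted p 0.663). It read 155, 162 and 140.1 in knockout banded hearts and 97.2, 88.8 and 121 in wild-type banded hearts. The genotypes thus did not overlap after banding (log2 difference 0.52, SE 0.13, adjusted p 0.137). Dimmer Itga3 probe sets gave 0.03 and −0.10 between the banded groups.

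Itgav was the member of the RGD-binding chains, which recognise the short Arg-Gly-Asp motif of fibronectin and vitronectin, that passed the test. Its intensity was 668, 854 and 738 in knockout banded hearts, 531, 481 and 509.7 in knockout sham hearts, 566, 517 and 453 in wild-type banded hearts, and 549.9, 457 and 449 in wild-type sham hearts. Each knockout banded array exceeded the other 9, and those 9 lay close together. The ratio of group means was 1.49 in knockout hearts (log2 difference 0.55, SE 0.12, adjusted p 0.0304) and 1.06 in wild-type hearts (0.08). A second Itgav probe set of lower signal gave 0.40 in knockout hearts, and 3 dim ones gave −0.33 to 0.26. With all Itgav probe sets averaged the adjusted p was 0.366. Without any 1 of the other 5 knockout arrays the Itgav adjusted p was 0.0752 to 0.145, and without the array labelled knockout banded 1 it was 0.0066 with a difference of 0.63.

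Itga5, the alpha chain of the classical fibronectin receptor, read 168, 255 and 267 in knockout banded hearts, 138, 116 and 161 in knockout sham hearts, 178, 122 and 169 in wild-type banded hearts, and 146, 110.3 and 174 in wild-type sham hearts. In knockout hearts the groups did not overlap, but the array labelled knockout banded 1 lay within the wild-type range. The difference of 0.66 (SE 0.20) did not pass with all arrays (adjusted p 0.0884) and was 0.85 without that array (adjusted p 0.0148). A second Itga5 probe set read 85.6, 177 and 174 in knockout banded hearts and 67.1, 62.1 and 65.1 in knockout sham hearts. Itga8, whose chain binds nephronectin and is found on mesenchymal cells, differed by 0.15 (95% interval −0.32 to 0.62). Itga2b, the platelet fibrinogen receptor chain, differed by −0.02 (−0.46 to 0.43).

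Itga9 encodes a chain that pairs with Itgb1 and binds tenascin-C and osteopontin. Its intensity was 240.3, 437 and 400.0 in knockout banded hearts, 170.0, 84.9 and 175 in knockout sham hearts, 193, 219 and 142 in wild-type banded hearts, and 259, 164 and 143 in wild-type sham hearts. Knockout banded 2 and 3 lay above all other arrays, while the array labelled knockout banded 1 was exceeded by 1 wild-type sham array. The mean in knockout banded hearts was 2.51 times that in knockout sham hearts (log2 difference 1.25, SE 0.29, adjusted p 0.0368), and the wild-type difference was −0.01. The 2 further probe sets of Itga9 gave 0.99 and a larger 1.28 from a dimmer probe set, which read 43.5, 68.3 and 84.9 in knockout banded hearts and 19.7, 13.8 and 17.2 in knockout sham hearts. Without the array labelled knockout banded 1 the Itga9 difference was 1.50 (adjusted p 0.00584). The call was lost without any 1 of the other 5 knockout arrays (adjusted p 0.0719 to 0.164) and without wild-type banded 1 (0.0501). Itga4, the leukocyte chain that binds VCAM1 and fibronectin, differed by 0.20 (95% interval −0.29 to 0.68).

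**Figure D2:**
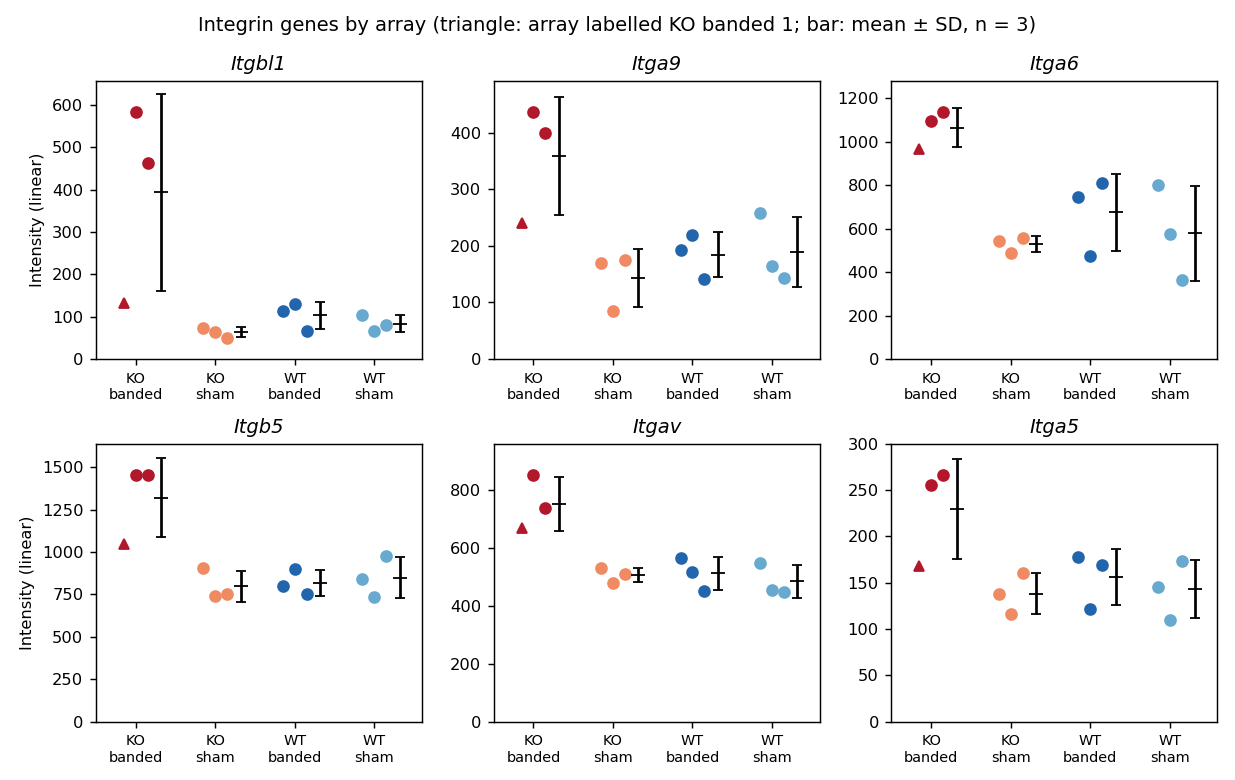
Intensity, on a linear scale from 0, of Itgbl1, Itga9, Itga6, Itgb5, Itgav and Itga5 in each of the 12 arrays by group, with the group mean and SD as a bar. The triangle is the array labelled knockout banded 1, which was the lowest of its group for all 6 genes. For Itga6, Itgb5 and Itgav all 3 knockout banded arrays lay above the other 9.

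Among the collagen-binding alpha chains only Itga1 was bright enough to test. It read 74.4, 187 and 168 in knockout banded hearts, 116, 72.1 and 71.3 in knockout sham hearts, 76.5, 92.1 and 107 in wild-type banded hearts, and 110.1, 87.0 and 90.0 in wild-type sham hearts. Knockout banded 2 and 3 were the highest of the 12 and the array labelled knockout banded 1 was among the 3 lowest. The difference in knockout hearts was 0.58 (SE 0.27, adjusted p 0.241) with that array and 0.94 (SE 0.20, adjusted p 0.00951) without it. A second Itga1 probe set gave −0.02 over all arrays. Itga2 and Itga10, the other collagen-binding chains analysed, had means of 29.8 and 45.7.

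Of the leukocyte alpha chains, Itgal was tested and Itgam, Itgax and Itgae lay below the filter with means of 34.4, 42.3 and 22.8. Itgal, which pairs with Itgb2 on lymphocytes, read 34.4, 40.02 and 39.8 in knockout banded hearts, 65.1, 60.7 and 63.9 in knockout sham hearts, 75.0, 72.8 and 50.1 in wild-type banded hearts, and 35.7, 50.8 and 41.6 in wild-type sham hearts. The knockout arrays were below every wild-type array after banding and above every wild-type array after sham surgery. The banding difference was −0.55 in knockout hearts (adjusted p 0.0821) and 0.48 in wild-type hearts (adjusted p 0.921), and the difference between these effects was −1.03 (SE 0.23, adjusted p 0.401). A second, dimmer Itgal probe set gave genotype differences of the same sign, 0.19 in banded and 0.14 in sham hearts, and a difference between the banding effects of 0.05. The summed signal of 9 lymphocyte markers was 249 to 300 in knockout banded, 249 to 314 in knockout sham, 255 to 351 in wild-type banded and 236 to 391 in wild-type sham hearts. Their part in the Itgal values was not tested.

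Itgb5 was the beta chain that passed. It pairs with Itgav in a vitronectin receptor that can also release TGF-beta from its latent complex. Its intensity was 1049.8, 1454 and 1456 in knockout banded hearts, 904, 740.0 and 750.3 in knockout sham hearts, 798, 902 and 753 in wild-type banded hearts, and 839, 734 and 976 in wild-type sham hearts. All 3 knockout banded arrays lay above the other 9. Means were 1319.6 ± 234 in knockout banded and 798 ± 92.0 in knockout sham hearts (SD, n = 3 each), a ratio of 1.65 (log2 difference 0.70, SE 0.15, adjusted p 0.0255), and the wild-type difference was −0.05 (95% interval −0.37 to 0.27). The 4 probe sets of Itgb5 gave 0.58 to 0.80 in knockout hearts. Without the array labelled knockout banded 1 the Itgb5 difference was 0.86 (adjusted p 0.00179), without knockout sham 1 the adjusted p was 0.0499, and without any 1 of the other 4 knockout arrays it was 0.0935 to 0.127.

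Itgb1, the partner of most alpha chains in muscle, read 1244, 2257 and 1975 in knockout banded hearts, 1322, 1743 and 1543 in knockout sham hearts, 1721, 1504 and 1633 in wild-type banded hearts, and 1896, 1606 and 1376 in wild-type sham hearts. The array labelled knockout banded 1 was the lowest of all 12 arrays and the other arrays of its group were the highest. The difference was 0.21 (95% interval −0.21 to 0.63, adjusted p 0.574) with that array and 0.46 (adjusted p 0.0611) without it. Itgb2, the shared beta chain of leukocyte integrins, read 68.4, 82.8 and 67.9 in knockout banded, 76.3, 79.1 and 67.9 in knockout sham, 101, 143 and 71.0 in wild-type banded, and 87.8, 67.3 and 71.7 in wild-type sham hearts. Its highest value was in wild-type banded 2, the array in which 8 neutrophil markers summed to 2352, whose part in the Itgb2 values was not tested, and no Itgb2 difference passed. Itgb6, an epithelial chain, differed by −0.11 in knockout hearts (95% interval −0.46 to 0.24).

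Itgb8, a further partner of Itgav that releases latent TGF-beta, fell below the filter. It read 42.9, 86.1 and 71.5 in knockout banded hearts, 22.0, 31.0 and 28.4 in knockout sham hearts, 41.6, 28.5 and 23.5 in wild-type banded hearts, and 30.2, 43.8 and 25.1 in wild-type sham hearts. Knockout banded 2 and 3 stood above the other arrays, and in a fit of all 18193 genes its difference was 0.91 (SE 0.24, adjusted p 0.0841). The other beta chains below the filter were Itgb3, Itgb7, Itgb2l and Itgb4, with means of 48.5, 26.0, 43.3 and 11.3.

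**Figure D3:**
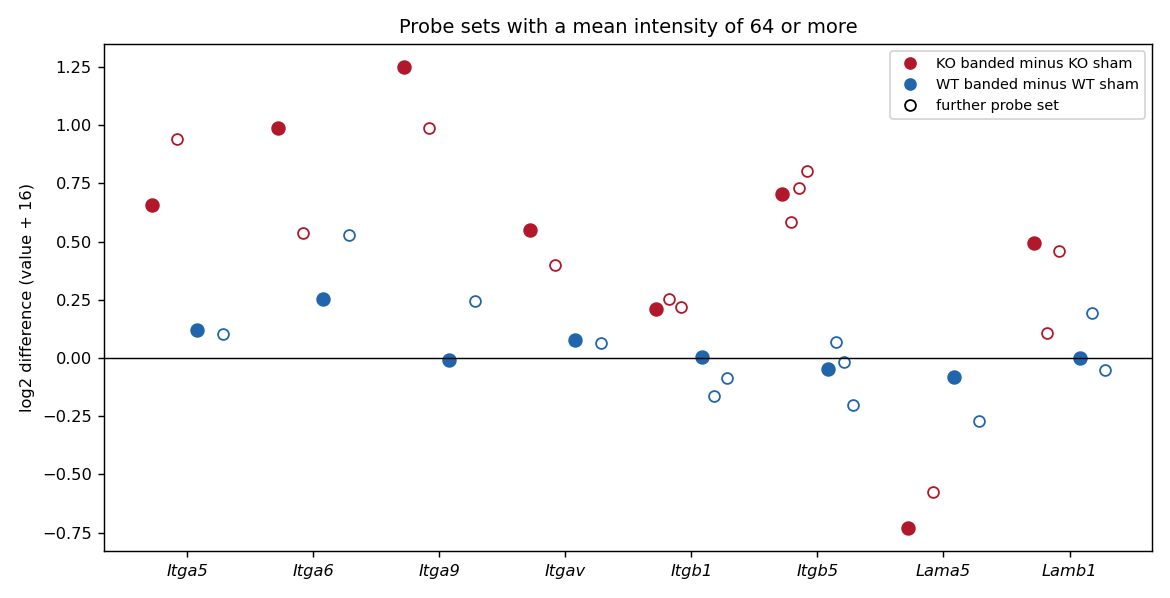
Banded minus sham differences, as log2(intensity + 16), for every probe set with a mean intensity of 64 or more in 8 genes that have more than 1 such probe set, in knockout hearts in red and in wild-type hearts in blue. Filled points are the probe sets used for the gene and open points the further ones. In knockout hearts the 4 Itgb5 probe sets lay at 0.58 to 0.80, and the 2 of Itga6 lay at 0.99 and 0.54. Itga1, Lama4 and Nid1 also have more than 1 such probe set and are not drawn. Their differences in knockout hearts were 0.58 and −0.02, 0.04 and 0.01, and 0.43 and 0.20.

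Itgbl1 had the largest banding difference of the 29 genes in knockout hearts. It encodes a secreted protein with EGF-like repeats resembling those of beta chains and is no receptor subunit. Its intensity was 133, 583 and 464 in knockout banded hearts, 74.0, 64.6 and 50.8 in knockout sham hearts, 113, 129 and 66.3 in wild-type banded hearts, and 104, 65.0 and 80.5 in wild-type sham hearts. Knockout banded 2 and 3 stood far above all others, and the array labelled knockout banded 1 lay just above the highest wild-type banded array. The ratio of means was 6.23 in knockout hearts (log2 difference 2.16, SE 0.41, adjusted p 0.0209) and 1.24 in wild-type hearts (0.24, 95% interval −0.65 to 1.12). Without the array labelled knockout banded 1 the Itgbl1 difference was 2.77 (adjusted p 7.17e-05), and without any 1 of the other 5 knockout arrays it was 1.77 to 2.25 with adjusted p-values of 0.0521 to 0.104.

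Itgb1bp2 encodes melusin, a muscle protein that binds the tail of the Itgb1 chain and takes part in the response to mechanical load. It read 2314, 2423 and 2494 in knockout banded hearts, 3268, 2638 and 3014 in knockout sham hearts, 2327, 2377 and 2710.4 in wild-type banded hearts, and 2403, 2481 and 2956 in wild-type sham hearts. The knockout groups did not overlap, but the difference did not pass (−0.30, SE 0.11, adjusted p 0.154), and in wild-type hearts it was −0.08. The summed signal of 8 ventricular cardiomyocyte markers was likewise lower in knockout banded hearts (55973 to 59508) than in knockout sham hearts (68708 to 76226), and its part in the Itgb1bp2 values was not tested. Itgb1bp1, which competes with talin for the Itgb1 tail, differed by 0.13 (95% interval −0.22 to 0.47). Itgb3bp, a centromere protein found in the nucleus, differed by 0.14 (−0.16 to 0.45).

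None of the laminin and nidogen genes passed in the 7 comparisons as fitted on all 12 arrays. In knockout hearts their banding differences ran from −0.82 for Lamb3 to 0.50 for Lamb1 with a median of 0.10, and 6 of the 10 lay above 0. In wild-type hearts they ran from −0.27 to 0.17 with a median of 0.00. The chains of the main muscle and vessel laminins thus stood on both sides of 0.

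Lama5, the alpha chain of a laminin found widely in vessel basement membranes, was lower in each knockout banded heart than in each knockout sham heart. It read 529, 362 and 411 in knockout banded hearts, 764, 815 and 604 in knockout sham hearts, 398, 617 and 533 in wild-type banded hearts, and 588, 604 and 440.0 in wild-type sham hearts. The 2 highest values belonged to the knockout sham group, and the knockout banded arrays lay within or just below the wild-type range. The difference of −0.73 (SE 0.19) missed the threshold with all arrays (adjusted p 0.0504). Without the array labelled knockout banded 1 it was −0.88 (adjusted p 0.0113), and the adjusted p was 0.0447 without wild-type banded 1 and 0.0461 without wild-type sham 3. With all 12 arrays Lama5 passed under 4 other settings: the upper 40% of genes by mean (0.0426), an added constant of 64 (0.0488), median centring (0.0475) and array weights (0.00709), the last of which also called Lamb3 and Nid1. A second Lama5 probe set gave −0.57.

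Lama2, the alpha chain of the muscle laminin that binds dystroglycan and the Itga7 chain, read 596, 567 and 579 in knockout banded, 603, 470.4 and 486 in knockout sham, 411, 541 and 596 in wild-type banded, and 453, 530.0 and 493 in wild-type sham hearts. The banded and sham arrays overlapped within each genotype, with a difference of 0.16 in knockout hearts (95% interval −0.13 to 0.46). Lama4, the alpha chain of endothelial laminin, read 378, 381 and 287 in knockout banded, 304, 325 and 384 in knockout sham, 384, 407 and 486 in wild-type banded, and 434, 433 and 369.7 in wild-type sham hearts. The knockout minus wild-type difference was −0.28 both in banded hearts (adjusted p 0.363) and in sham hearts (adjusted p 0.931), and neither passed. The genotypes did not overlap in banded hearts and overlapped in sham hearts. A second, dimmer Lama4 probe set gave −0.16 in banded hearts, with overlap, and −0.33 in sham hearts, without overlap.

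Lamb1, a beta chain of vessel and muscle laminins, read 427, 439 and 327 in knockout banded, 235, 246 and 358 in knockout sham, 361, 319.8 and 390.2 in wild-type banded, and 395, 318 and 356 in wild-type sham hearts. The lowest values were knockout sham 1 and 2, and the difference of 0.50 in knockout hearts did not pass (SE 0.16, adjusted p 0.103). Its further bright probe sets gave 0.11 and 0.46. Lamb2, the beta chain of the neuromuscular junction and of mature muscle laminin, read 597, 694 and 575 in knockout banded, 656, 647 and 654 in knockout sham, 609.9, 635 and 699 in wild-type banded, and 654, 684 and 764 in wild-type sham hearts. All 4 groups overlapped for Lamb2, with a difference of −0.07 in knockout hearts (95% interval −0.29 to 0.14).

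Lamc1, the gamma chain of most laminins, read 911, 1169 and 771 in knockout banded, 693, 682 and 850.3 in knockout sham, 722, 624 and 876 in wild-type banded, and 896, 688 and 633 in wild-type sham hearts. It overlapped between groups (0.34 in knockout hearts, adjusted p 0.291). Nid1 read 934.3, 1224 and 1061 in knockout banded and 649.8, 802 and 933.98 in knockout sham hearts. It read 1080.3, 974 and 806 in wild-type banded and 897, 879.5 and 754 in wild-type sham hearts. Its difference was 0.43 in knockout hearts (SE 0.15, adjusted p 0.125). Without the array labelled knockout banded 1 it was 0.53 (adjusted p 0.0511). A second, dimmer Nid1 probe set overlapped between the knockout groups, with a difference of 0.20. Nid2, the second nidogen, was dimmer, with means of 89.8 ± 10.1 in knockout banded, 69.6 ± 18.4 in knockout sham, 70.4 ± 25.4 in wild-type banded and 79.2 ± 10.9 in wild-type sham hearts (SD, n = 3 each) and a knockout difference of 0.32 (adjusted p 0.435).

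**Figure D4:**
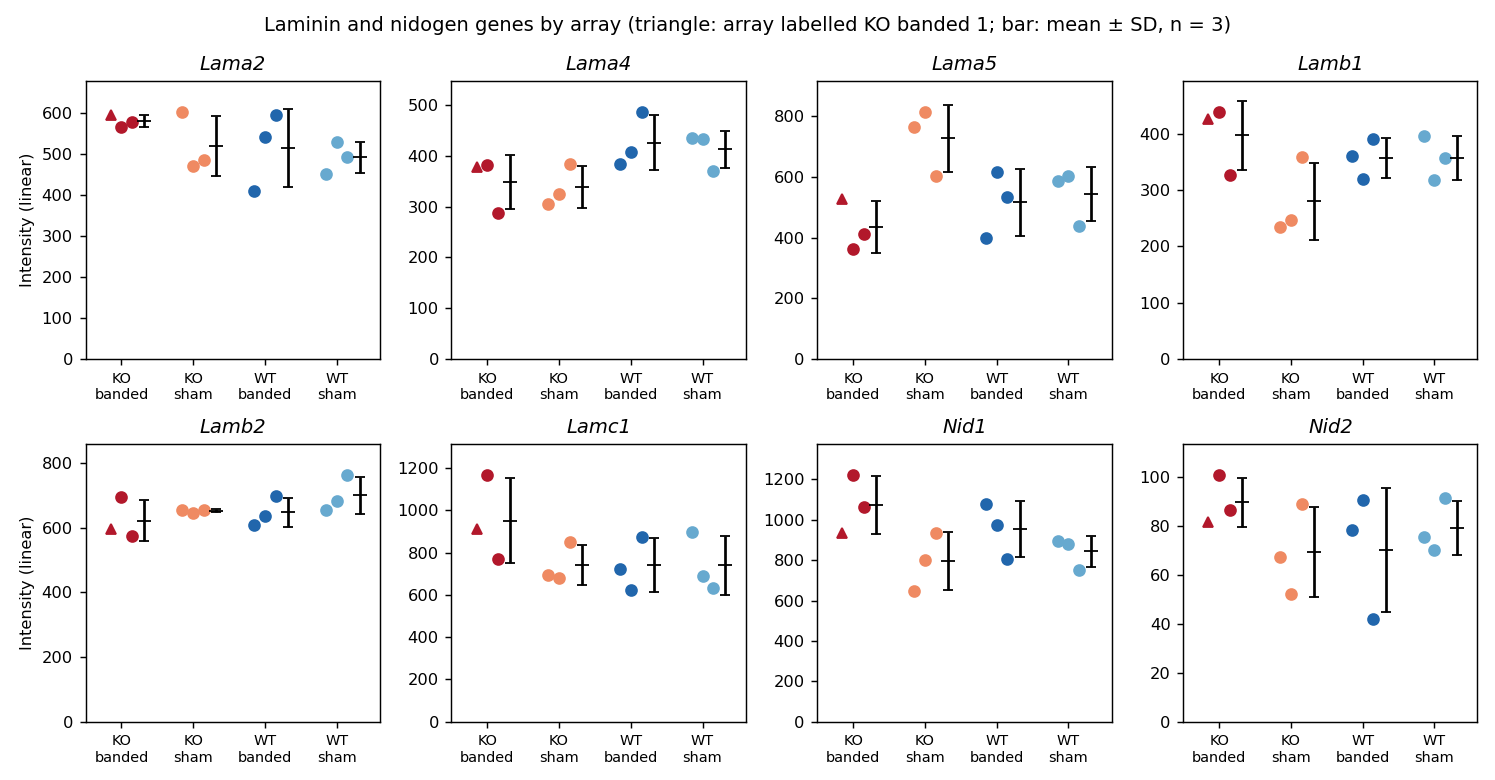
Intensity, on a linear scale from 0, of 8 laminin and nidogen genes in each array by group, with the group mean and SD as a bar and the array labelled knockout banded 1 as a triangle. Lama5 was lower in knockout banded than in knockout sham hearts without overlap, and Lamb2, Lamc1 and Nid2 overlapped between all groups.

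Lamb3 and Lama3 encode chains of an epithelial laminin. Lamb3 read 126, 87.7 and 69.0 in knockout banded hearts, 179, 205 and 144 in knockout sham hearts, 117, 139 and 152 in wild-type banded hearts, and 92.5, 183 and 268 in wild-type sham hearts. The knockout groups did not overlap, while the wild-type sham group alone spanned most of the range. The knockout difference was −0.82 (SE 0.29, adjusted p 0.13) and, without the array labelled knockout banded 1, −1.02 (adjusted p 0.0493). Lama3 had group means of 49.3 to 57.8 and a difference of −0.06 (adjusted p 0.889). Lama1 and Lamc3 lay below the filter with means of 2.59 and 48.4.

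In wild-type hearts, banding gave no call among the 29 genes with limma, and none among all 10916 tested genes (0%). At an unadjusted p under 0.05 there was 1 of the 29, Itgal, and 4.92% of all tested genes. The banded and sham arrays did not overlap for 0 genes upwards and 1 downwards, Itgb6, beside 3.78% and 6.15% of all tested genes, and the median difference of the 29 was 0.00. When the banding effect was averaged over both genotypes, 0 of the 29 passed. At an unadjusted p under 0.05 there were 11 of the 29 and 18.2% of all tested genes, while 1.58% of all tested genes passed after adjustment, 0.934% higher and 0.641% lower. The smallest adjusted p in that comparison was 0.0601, for Itgbl1. For the averaged effect 7 of the 29 passed without the array labelled knockout banded 1: Itga5, Itga6, Itga9, Itgav, Itgb5 and Itgbl1 were higher after banding and Lama5 was lower, against 4.37% and 4.71% of all tested genes. Without wild-type sham 1, 2 of the 29 passed, Itga6 and Lamb3, and 163 of the 10916 genes.

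The wild-type result does not by itself set the genotypes apart, and their difference was tested directly. The interaction, the banding effect in knockout minus that in wild-type hearts, called 0 of the 29 genes and 0% of all tested genes with limma. At an unadjusted p under 0.05 it gave 6 of the 29, 4 positive and 2 negative, beside 9.08% of all tested genes. The largest interactions were 1.92 for Itgbl1 (SE 0.58, adjusted p 0.443), 1.26 for Itga9 (SE 0.41, adjusted p 0.443) and, negative, −1.03 for Itgal. For Itgb5 it was 0.75 (SE 0.21, adjusted p 0.443). Leaving out the array labelled knockout banded 1 let 2 genes pass, Itgbl1 (2.53, adjusted p 0.00559) and Itgb5 (0.91, adjusted p 0.0294), in a fit that called 1.02% of all tested genes positive and 0.879% negative.

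Between genotypes after banding, several integrin genes were higher in knockout hearts, none past the threshold with all arrays. The comparison of knockout with wild-type banded hearts called 0 of the 29 genes and 0% of all tested genes with limma. At an unadjusted p under 0.05 there were 8 of the 29 and 14.7% of all tested genes. The groups did not overlap for 6 genes that were higher in knockout hearts (Itga3, Itga6, Itga9, Itgav, Itgb5 and Itgbl1) and 2 that were lower (Itgal and Lama4), where 10.2% of all tested genes did so upwards and 8.94% downwards. Differences were 1.60 for Itgbl1 (adjusted p 0.146), 0.88 for Itga9 (0.215), 0.67 for Itgb5 (0.125) and 0.54 for Itgav (0.126). When the array labelled knockout banded 1 was left out, 5 genes passed, all of them higher in knockout hearts: Itgbl1 (2.22, adjusted p 0.00078), Itga9 (1.13, 0.0392), Itga1 (0.85, 0.0269), Itgb5 (0.82, 0.00546) and Itgav (0.62, 0.0146), beside 3.28% of all tested genes higher and 2.89% lower. A second, dimmer Itga1 probe set went the other way between the banded groups, with −0.31 over all arrays. It read 65.4, 57.5 and 58.0 in knockout banded and 82.9, 76.3 and 75.7 in wild-type banded hearts. This genotype comparison and the banding comparison in knockout hearts share the knockout banded arrays.

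**Figure D5:**
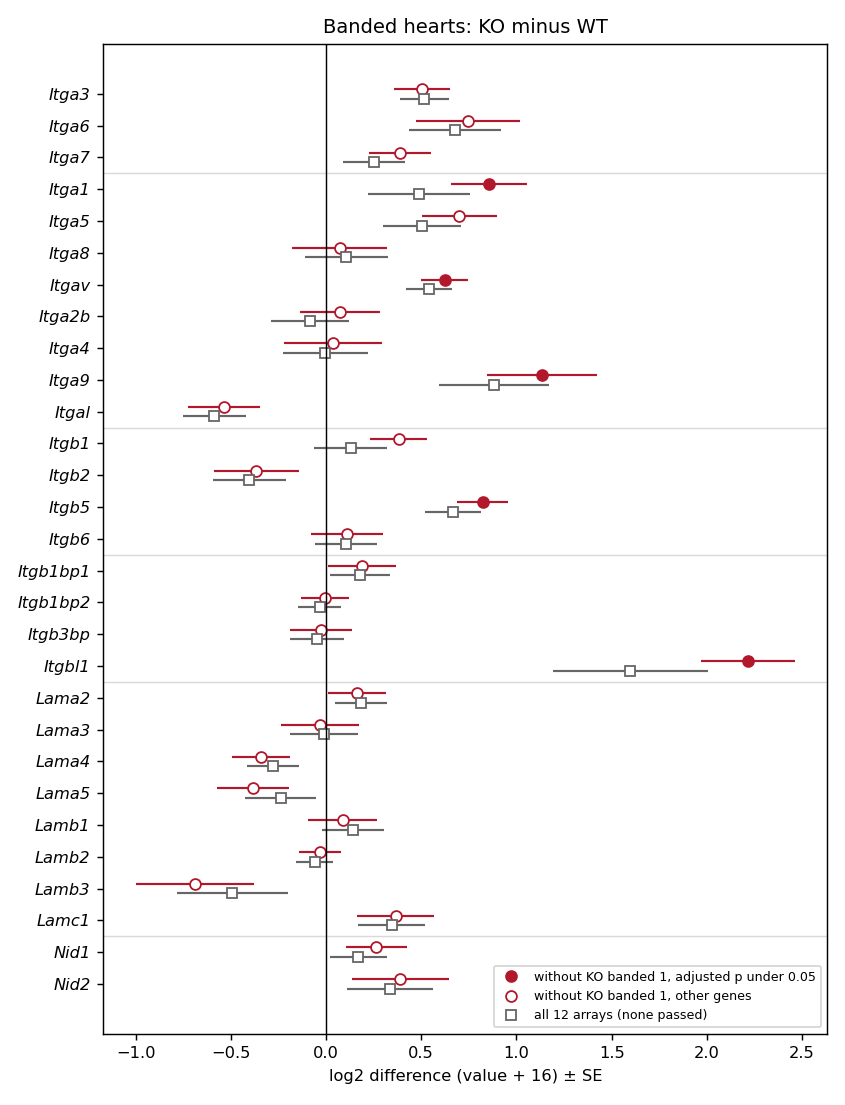
Knockout minus wild-type differences in banded hearts for the 29 tested genes, as log2(intensity + 16) with the SE, from all 12 arrays in grey squares and without the array labelled knockout banded 1 in red circles. Filled circles passed the adjusted threshold: Itga1, Itgav, Itga9, Itgb5 and Itgbl1. No gene passed with all 12 arrays.

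In sham hearts no genotype difference of the 29 genes passed. The comparison of knockout with wild-type sham hearts called 0 of the 29 genes and 0% of all tested genes with limma. At an unadjusted p under 0.05 there were 4 of the 29 and 5.17% of all tested genes. Without the array labelled knockout banded 1 it again called 0 of the 29, with 0% of all tested genes higher and 0.00916% lower. The 4 genes with an unadjusted p under 0.05 were Itgal (0.44) and Lama5 (0.41), higher in knockout hearts, and Lamb1 (−0.35) and Itgb3bp (−0.31), lower in knockout hearts. Itgal alone of the 29 separated the groups fully, upwards, beside 5.51% of all tested genes upwards and 5.34% downwards. Averaged over surgery the genotype comparison also called 0 of the 29 genes and 0% of all tested genes, with 5 of the 29 and 10.6% of all tested genes at an unadjusted p under 0.05, and without the array labelled knockout banded 1 it called Itgbl1 higher in knockout hearts, beside 0.751% of all tested genes higher and 0.568% lower.

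Several integrin ligands outside the basement membrane were higher in the same comparison. Of 17 tested ligand genes, 5 were higher in knockout banded than in knockout sham hearts and none was lower: Postn (2.63, adjusted p 0.0247), Ccn2 (2.50, 0.0216), Thbs1 (2.11, 0.0463), Col3a1 (1.47, 0.0228) and Col1a1 (1.18, 0.0295). Postn encodes periostin, a matrix protein that binds Itgav receptors, and it read 639, 4719 and 3978 in knockout banded hearts and 356, 354 and 365 in knockout sham hearts. The array labelled knockout banded 1 was again the lowest of its group by far. The median ligand difference was 0.68. Of all tested genes 2.04% were called higher in knockout banded hearts and 1.73% lower. Without the array labelled knockout banded 1, 10 of the 17 passed, beside 6.21% of all tested genes higher and 6.93% lower. In the effect averaged over genotypes 3 of the 17 were higher (Col3a1, Col1a1 and Ccn2), beside 0.934% of all tested genes.

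Among integrin adhesion and signalling genes, Flnc and Tln1 passed. Of 35 tested genes of this list, 2 were higher in knockout banded hearts, the filamin gene Flnc (1.15, SE 0.17, adjusted p 0.0126) and the talin gene Tln1 (0.57, SE 0.14, adjusted p 0.0417), and the median was 0.15. Flnc read 897, 1155 and 1364 in knockout banded hearts and 564, 443 and 493 in knockout sham hearts. Flnc also passed in the effect averaged over genotypes (0.75, adjusted p 0.0223). None of 17 other tested basement membrane and laminin-binding genes passed (median 0.07), and none of 8 dystrophin-complex genes passed (median 0.06). Without the array labelled knockout banded 1, the genes called higher numbered 8 of 35, 7 of 17 and 1 of 8 in these 3 lists. Over all tested genes 2.04% were called higher with that array and 6.21% without it, and 6.93% were called lower without it. Genes of these 3 lists called lower in that fit are not given here.

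All 11 endothelial markers lay above 0 for banding in knockout hearts, with a median of 0.19 and none passing. Without the array labelled knockout banded 1, 2 of these 11 passed, beside 6.21% of all tested genes higher and 6.93% lower. The summed endothelial signal was 4972 to 5676 in knockout banded and 4273 to 4793 in knockout sham hearts. It was 5114 to 5278 in wild-type banded and 4992 to 5943 in wild-type sham hearts. Fibroblast markers, with 7 of 11 above 0, summed to 13652 to 15831 in knockout banded and 14052 to 16557 in knockout sham hearts, and macrophage markers summed to 3719 to 5818 in knockout banded and 3971 to 4796 in knockout sham hearts. No endothelial, fibroblast or macrophage marker had a mean under 16. The Actb 3′ to 5′ log2 signal ratio, a measure of RNA integrity, averaged −0.20 ± 0.0231 for knockout banded hearts and 0.15 ± 0.156 for knockout sham hearts (SD, n = 3 each; exact permutation test, p = 0.1, the smallest value possible), and that of Gapdh was −0.33 and −0.36 (p = 0.3). The part of these shifts in the integrin and laminin values was not tested.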

How the data were processed

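The deposited intensities were used as given: 1 linear value for each of 45101 probe sets in 12 arrays. Their trimmed mean, leaving out 2% at each end, was 150 in every array, and no source used here names the software or scaling step behind them. The labels state Trizol extraction and the Affymetrix labelling protocol. Read depth does not apply to arrays, and the number of arrays limits the precision. Of the probe sets, 64 controls were left out, 34945 had 1 gene symbol in the platform annotation, 932 had several and 9160 were not listed, and 34741 matched a RefSeq gene. Each of 18193 genes was read by its probe set of highest mean, and the upper 60% by mean (10916) were tested.

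Differences of log2(intensity + 16) were fitted with limma 3.58.1 in R 4.3.3 as 4 group means with a variance trend (8 residual degrees of freedom), two-sided, with Benjamini-Hochberg adjustment over all tested genes in each of 7 comparisons. The fit was tested on simulated data with independent noise and no deviating array, so that test does not cover the dependence on single arrays. Apln was tested by exact permutation. Promoter windows came from a RefSeq table of build GRCm38.p6. Named in full were genes that passed and heart genes listed by role, and companion and marker lists were set by function. The members and lists were chosen with earlier results of these data known. Alternatives covered the filter, the added constant, quantile and median scaling, the trend, array weights, probe set averaging, the arrays fitted, a replicate block and leaving out arrays. Replicate numbers recur in each group, but arrays of one number did not deviate together (correlations of −0.28 to 0.23), so no pairing was used.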

Additional observations from a re-analysis of the deposited data

Results flagged for a closer look

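Itgal stood out because, by its brighter probe set, its genotype difference had opposite signs in banded and sham hearts with no overlap of arrays in either. Knockout banded hearts read 34.4 to 40.02 against 50.1 to 75.0 in wild-type banded hearts, and knockout sham hearts read 60.7 to 65.1 against 35.7 to 50.8 in wild-type sham hearts. The difference between the banding effects was −1.03 (SE 0.23, adjusted p 0.401 with limma), and it was −0.98 (adjusted p 0.0745) without the array labelled knockout banded 1. A second, dimmer Itgal probe set had genotype differences of the same sign (0.19 in banded and 0.14 in sham hearts) and a difference between the banding effects of 0.05.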

How the results depend on the processing

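For banding in knockout hearts, 5 members passed, and 412 genes in all. The count was 3 with all genes tested (Itgav, Itgb5 and Itgbl1; 214 genes in all), 3 when each gene's probe sets were averaged (Itga9, Itgb5 and Itgbl1; 331), 1 with the knockout groups fitted alone (Itga6; 71), 1 with the replicate number as a block (Itgbl1; 222), 4 without the variance trend (all but Itga6; 273), 11 with array weights (1887) and 9 without both knockout banded 1 and wild-type banded 3 (1349). Leaving out 1 array gave 0 to 9 members and 5 to 1434 genes in all. For banding averaged over genotypes the count was 0, and 5 with array weights, 5 without both arrays and 0 to 7 leaving out 1 array. For knockout against wild type in banded hearts it was 0, and 5 with array weights, 5 without both arrays and 0 to 5 leaving out 1 array. For the genotype effect averaged over surgery it was 0, and 1 without both arrays and 0 to 1 leaving out 1 array. For the interaction it was 0, and 1 without both arrays (Itgbl1) and 0 to 2 leaving out 1 array. Banding in wild-type hearts and genotype in sham hearts gave 0 in every alternative run, and the replicate block changed no other count by over 1.5 times. No called difference changed sign under any alternative run. The causes of these changes were not tested. Fits that left arrays or groups out also held fewer of them. The differences of dim members are understated by the added constant, and the 12 members below the filter, with means of 2.59 to 48.5, were tested only in the fit of all genes.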
